A study of Aspergillus nidulans with 6 samples.

Results

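The 10 genes described here encode 5 enzymes of gluconeogenesis, the glyoxylate cycle and acetate activation in the filamentous fungus Aspergillus nidulans, and 5 transcription factors that activate such genes. They were taken by locus number from a table of 10988 features. The rule did not use their values, but earlier results of these data were known when the genes were chosen. All 10 were present and passed the filter on low counts. RNA was sequenced from mycelium of the FGSC A4 wild type, grown in Barratt's minimal broth with shaking. In 3 libraries the exponentially growing cultures had been given 35 mM tyrosol, and 3 libraries came from untreated cultures. Both groups share the strain, so the data describe 1 genotype, and the length of exposure is not given in the sources used here. Tyrosol, a phenolic alcohol related to tyrosine, serves as a quorum-sensing molecule in the yeast Candida albicans. The comparison addresses how exposure to it shifts transcript levels, here of the enzymes of C2 use and of their activators.

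A fungus that grows on acetate, fatty acids or other sources of acetyl-CoA must build sugars from C2 units. Acetyl-CoA synthetase activates acetate, the glyoxylate cycle joins acetyl-CoA into C4 acids while bypassing the steps of the citric acid cycle that release carbon dioxide, and gluconeogenesis turns the C4 acids into hexose phosphates. In A. nidulans, FacB activates the acetate genes, FarA and FarB activate genes of fatty acid breakdown and the glyoxylate cycle, and AcuK and AcuM activate the gluconeogenic genes.

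Among the 5 enzymes the direction of change differed between these steps, a description of few genes that was not tested. With tyrosol, the transcripts of both glyoxylate cycle enzymes (acuD and acuE) and of acetyl-CoA synthetase (facA) rose, acuD by 39.1-fold, acuE by 4.09-fold and facA by 3.35-fold. Both gluconeogenic enzymes (acuF and acuG) fell, to 0.65-fold and 0.541-fold of untreated. Among the activators, farB rose 5.20-fold and farA 2.05-fold, acuM fell to 0.796-fold, and facB and acuK did not pass the test. In all, 5 of the 10 genes rose, 3 fell and 2 did not pass, and each of the 5 that rose did so by at least 2-fold.

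Most of the transcriptome moved in this comparison, so these counts have a high background. Of 8905 features tested, 83.5% were called changed at an adjusted p under 0.05, 40.6% upward and 42.9% downward. A change of at least 2-fold was called for 47.6% of features, a rise of that size for 23.1% and a fall for 24.5%. The share of the 10 genes that changed, 8 of 10, is therefore close to that of all features. Their median log2 fold change was 0.50 against -0.04 over all tested features, and the median size of the change, irrespective of sign, was 0.96 against 0.93. The size of the acuD change was larger than that of 98.5% of tested features, and those of farB, acuE and facA were larger than 84.6%, 79.9% and 74.3%. For the remaining 6 genes this share ran from 1.86% (acuK) to 53.6% (farA).

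The libraries held 9353438 to 11917409 counted reads, and the 10 genes took 0.181%, 0.182% and 0.19% of them in tyrosol libraries, against 0.0871%, 0.0788% and 0.0716% in untreated libraries. Levels are in RPKM, the read count scaled by the listed gene length and by the counted reads of the library. Log2 fold changes set tyrosol over untreated, with the SE, and come from edgeR's quasi-likelihood test on counts with TMM scaling; adjusted p-values are Benjamini-Hochberg over all tested features. TMM factors correct for a few features taking up much of a library, so fold changes differ somewhat from ratios of RPKM. The factors were 0.927, 0.929 and 0.919 in tyrosol libraries and 1.07, 1.08 and 1.09 in untreated libraries, so they differed by group. TMM takes most features as unchanged, whereas 83.5% were called changed here, so the zero point for small changes is uncertain. Scaling by library size alone moved the median of all features by -0.22 on the log2 scale. The labels do not say whether replicates were separate cultures, and the p-values then reflect just the spread among these libraries, which may be technical. In RNA from whole mycelium, fewer cells of a kind and less RNA per cell cannot be told apart.

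**Figure D1:**
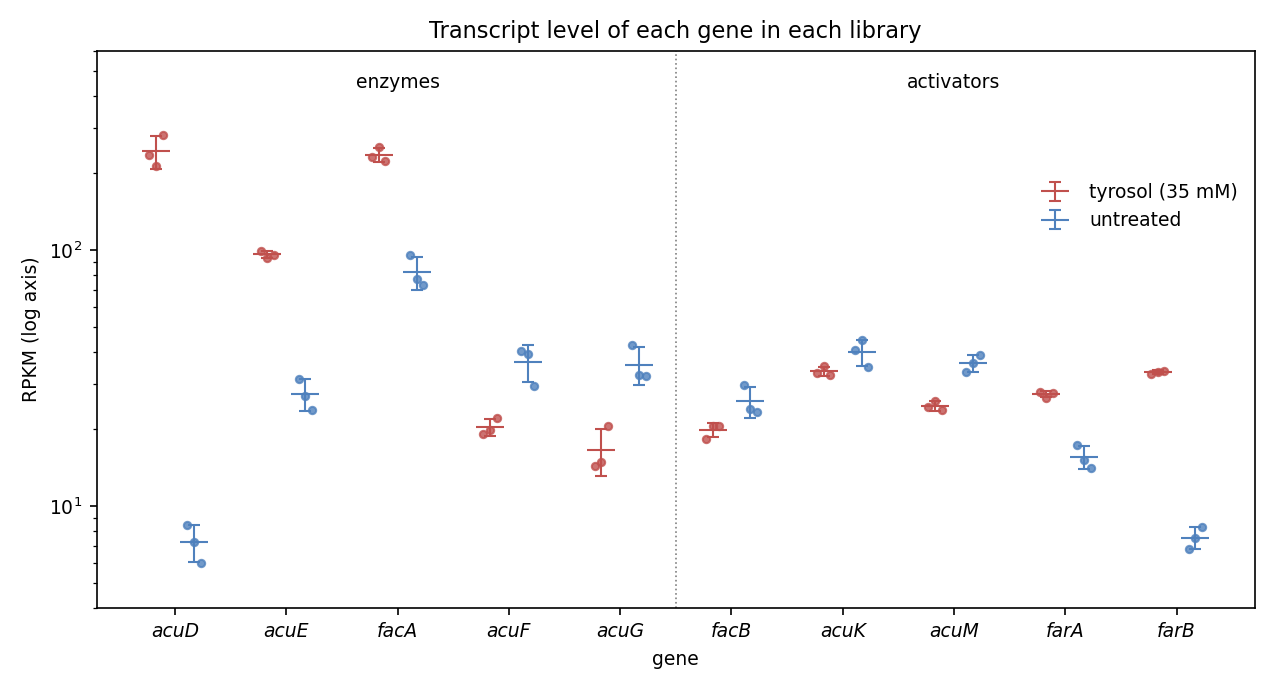
RPKM of each gene (log axis) in the 3 tyrosol libraries (red, left) and the 3 untreated libraries (blue, right); points are libraries, bars the mean and SD. The libraries of acuD lie at 212 to 281 RPKM with tyrosol and 6.01 to 8.41 RPKM untreated, and acuK is the gene whose groups overlap.

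The glyoxylate cycle has 2 enzymes of its own. Isocitrate lyase, encoded by acuD (AN5634), splits isocitrate into succinate and glyoxylate. Its transcript reached 236, 212 and 281 RPKM in tyrosol libraries 1, 2 and 3, against 8.41, 7.24 and 6.01 RPKM in untreated libraries 1, 2 and 3. The lowest tyrosol library was far above the highest untreated one, and the groups did not overlap. These levels rest on 5259 to 7134 reads with tyrosol and 124 to 221 reads untreated. On the log2 scale acuD rose by 5.29 ± 0.15 (adjusted p = 3.7e-12). The rise took acuD to a level above that of 95.1% of genes in the tyrosol libraries, against 38.5% in untreated libraries.

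Malate synthase, encoded by acuE (AN6653), condenses the glyoxylate with acetyl-CoA to malate. The acuE transcript was at 99.4, 93.1 and 95.8 RPKM with tyrosol, against 31.4, 27.0 and 23.6 RPKM untreated. All 3 tyrosol libraries were above the 3 untreated ones, and they lay closer together (coefficient of variation 3.32%, against 14.3% untreated). The rise was 2.03 ± 0.11 on the log2 scale (adjusted p = 9.7e-10).

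These enzymes act in sequence, but their transcripts did not change in proportion. The ratio of acuD to acuE RPKM within a library was 2.37, 2.28 and 2.94 with tyrosol, against 0.268, 0.269 and 0.255 untreated. Isocitrate lyase transcript was thus the scarcer of the pair in every untreated library and the more abundant in every tyrosol library. The mean log2 ratio differed by 3.25, with an exact two-sided permutation p = 0.1 (adjusted p = 0.125 over 5 ratios), and 0.1 is the smallest p that 3 against 3 libraries can give.

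Acetyl-CoA synthetase, encoded by facA (AN5626), makes acetyl-CoA from acetate. Its level was 231, 252 and 223 RPKM with tyrosol, against 95.5, 77.2 and 72.8 RPKM untreated. The groups did not overlap, and facA was the most abundant of the 10 transcripts in the untreated libraries. Its log2 fold change was 1.75 ± 0.11 (adjusted p = 5.2e-09). With tyrosol acuD (243 ± 35.1 RPKM, SD, n = 3) and facA (235 ± 15.2 RPKM) were the highest of the 10 and their libraries overlapped. Relative to facA, acuE was at 0.41 ± 0.0355 with tyrosol and 0.334 ± 0.013 untreated (SD, n = 3 each), a pair chosen after the values were seen and given as a description.

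In the gluconeogenic branch the direction was the opposite. Phosphoenolpyruvate carboxykinase, encoded by acuF (AN1918), converts oxaloacetate to phosphoenolpyruvate at the entry of the pathway. Its transcript was at 19.2, 19.7 and 22.0 RPKM with tyrosol, against 40.4, 39.4 and 29.5 RPKM untreated. All tyrosol libraries were below all untreated ones, though untreated replicate 3 stood nearer to them than the other two did. Tyrosol over untreated, the log2 fold change was -0.62 ± 0.12 (adjusted p = 0.00036).

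Fructose bisphosphatase, encoded by acuG (AN5604), removes a phosphate near the end of the pathway and opposes phosphofructokinase. Its transcript was at 14.3, 14.8 and 20.5 RPKM with tyrosol, against 42.5, 32.4 and 32.1 RPKM untreated. The groups did not overlap, with tyrosol replicate 3 above the other tyrosol libraries. The log2 fold change was -0.89 ± 0.15 (adjusted p = 0.00012), short of 2-fold. Without tyrosol replicate 3 it was -1.07, and with library size as the only scaling -1.11, both past 2-fold.

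The ratio of acuF to acuG was 1.34, 1.33 and 1.08 with tyrosol, against 0.95, 1.22 and 0.918 untreated. These ranges overlapped, and the difference of 0.29 in the mean log2 ratio had an exact permutation p = 0.2 (two-sided, adjusted p = 0.2 over 5 ratios). Across the branches the contrast was wide. The ratio of acuD to acuF, chosen after the values were seen and therefore not tested, was 12.3, 10.7 and 12.8 with tyrosol, against 0.208, 0.184 and 0.204 untreated. That of acuE to acuF was 5.19, 4.71 and 4.35 with tyrosol, against 0.778, 0.684 and 0.801 untreated. Both glyoxylate transcripts were thus below acuF in each untreated library and above it in each tyrosol library.

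**Figure D2:**
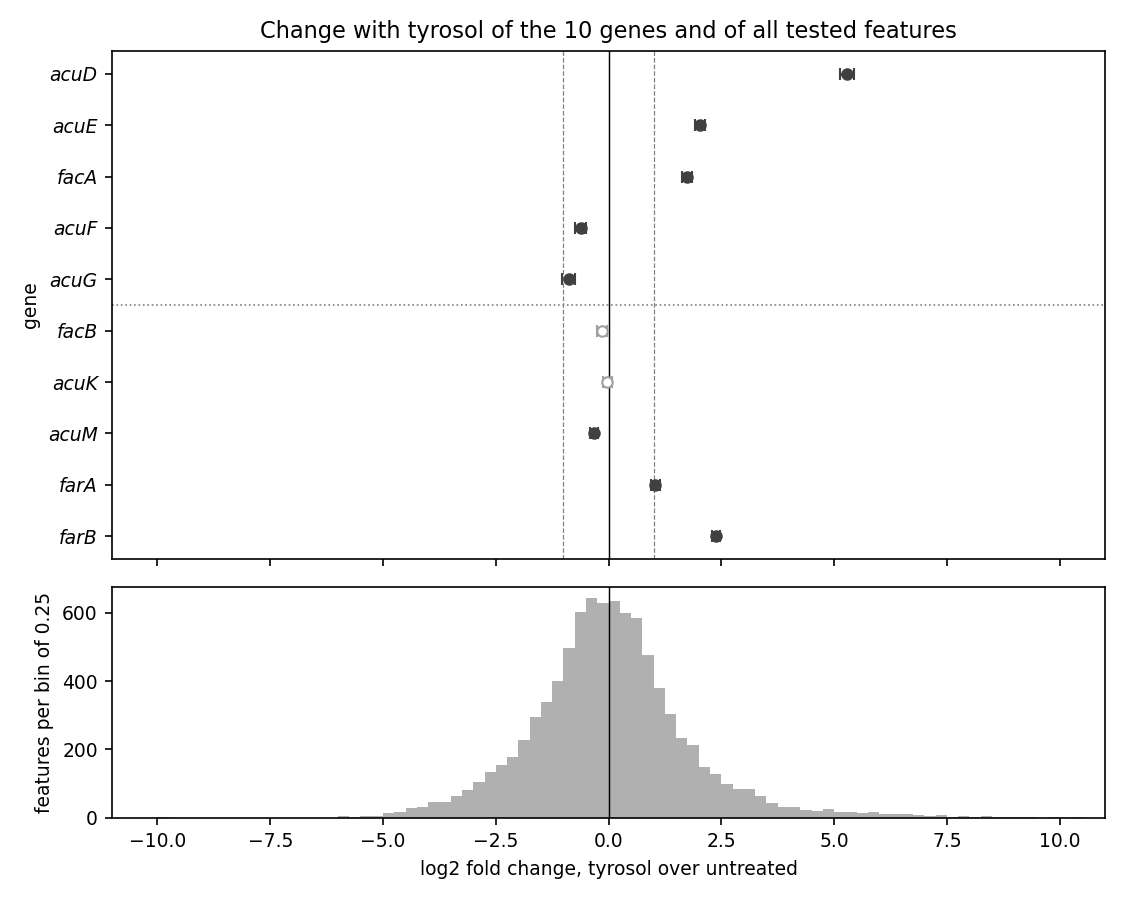
Log2 fold change, tyrosol over untreated, of each gene with its SE (above; filled points have an adjusted p under 0.05, open points do not, dashed lines mark 2-fold) and the distribution over all 8905 tested features (below). The acuD value of 5.29 lies in the right tail, while facB at -0.15 and acuK at -0.03 lie at the centre.

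The activators of these enzymes divided in another way. FacB, encoded by facB (AN0689), is a zinc cluster protein required for induction of facA, acuD and acuE by acetate. Its transcript was at 18.3, 20.5 and 20.6 RPKM with tyrosol, against 29.7, 24.0 and 23.2 RPKM untreated. The RPKM ranges did not touch, but after TMM scaling the log2 fold change was -0.15 ± 0.11 (95% interval -0.38 to 0.08; adjusted p = 0.21). With library size as the only scaling it was -0.37 (adjusted p = 0.0049), a call that thus depended on the scaling.

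The facA transcript moved relative to that of its activator. The ratio of facA to facB within a library was 12.6, 12.3 and 10.8 with tyrosol, against 3.22, 3.22 and 3.13 untreated. Those ranges were far apart and the untreated libraries nearly equal, with a difference of 1.90 in the mean log2 ratio (exact two-sided permutation p = 0.1, adjusted p = 0.125 over 5 ratios).

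AcuK (AN7468) and AcuM (AN6293) are zinc cluster proteins, both needed for expression of acuF and acuG during growth on gluconeogenic carbon sources. The acuK transcript was at 33.1, 35.1 and 32.5 RPKM with tyrosol, against 40.6, 44.3 and 35.0 RPKM untreated. Untreated replicate 3 fell within the tyrosol range, so the groups overlapped. The log2 fold change was -0.03 ± 0.10 (95% interval -0.24 to 0.18; adjusted p = 0.78), its sign turned to 0.01 with DESeq2 size factors, and it was -0.25 (adjusted p = 0.025) with library size only.

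For acuM the levels were 24.3, 25.8 and 23.6 RPKM with tyrosol, against 33.3, 36.1 and 38.9 RPKM untreated. No tyrosol library reached an untreated one. The fitted log2 change was -0.33 ± 0.09 (adjusted p = 0.0035), and -0.55 with library size only. This was the smallest of the 8 changes that passed the test.

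The ratio of acuK to acuM was nearly constant with tyrosol, at 1.36, 1.36 and 1.37, against 1.22, 1.23 and 0.90 untreated. The difference in the mean log2 ratio was 0.31 (exact two-sided permutation p = 0.1, adjusted p = 0.125 over 5 ratios). Untreated replicate 3 stood apart, and without it the difference was 0.16.

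FarA and FarB are zinc cluster proteins that switch on genes of fatty acid breakdown, FarB mainly in response to short-chain fatty acids. The farB transcript (AN1425) was at 32.7, 33.5 and 33.8 RPKM with tyrosol, against 6.78, 7.52 and 8.25 RPKM untreated. Every tyrosol library was far above the untreated range, and farB had the smallest spread of the 10 genes with tyrosol (coefficient of variation 1.60%). The farB rise was 2.38 ± 0.09 on the log2 scale (adjusted p = 6.2e-11), the second largest rise of the 10.

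The farA transcript (AN7050) was at 27.8, 26.5 and 27.6 RPKM with tyrosol, against 17.3, 15.2 and 14.1 RPKM untreated. Its groups did not overlap either. The log2 fold change was 1.03 ± 0.10 (adjusted p = 2.9e-07), so close to 2-fold that it was called changed but not at 2-fold with upper-quartile factors (0.97), with library size only (0.81) or without untreated replicate 3 (0.97).

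The order of the pair reversed. The ratio of farA to farB was 0.849, 0.791 and 0.817 with tyrosol, against 2.56, 2.02 and 1.71 untreated. In each untreated library farA was the more abundant and in each tyrosol library farB was, with a difference of -1.34 in the mean log2 ratio (exact two-sided permutation p = 0.1, adjusted p = 0.125 over 5 ratios).

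**Figure D3:**
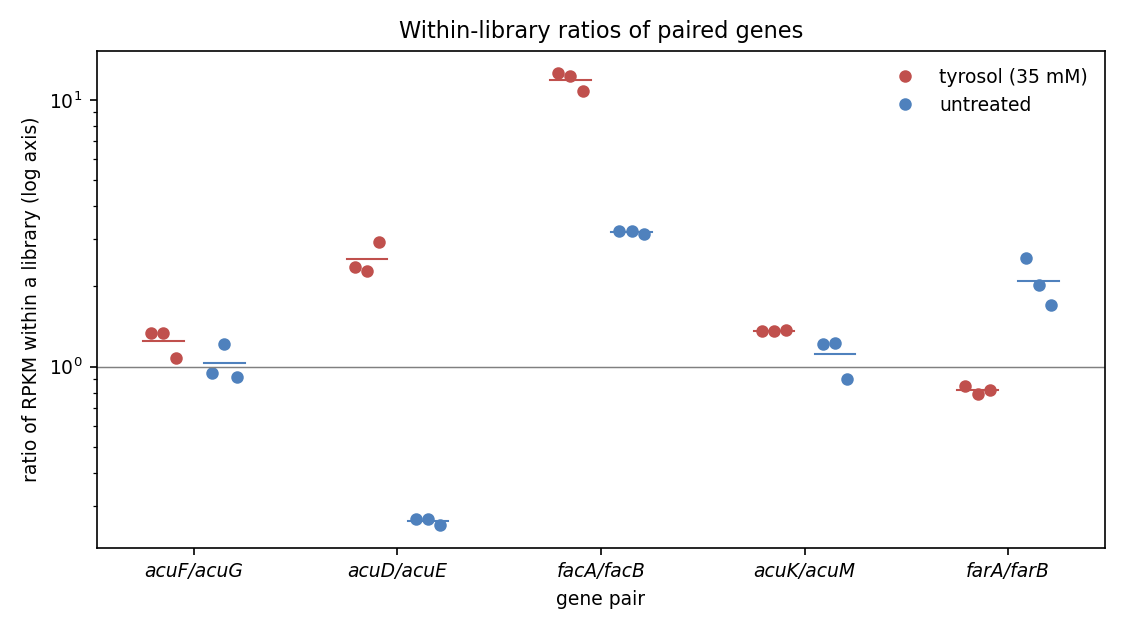
Ratio of the RPKM of 2 genes within each library (log axis), tyrosol in red on the left and untreated in blue on the right of each pair; points are libraries and bars means. The groups overlap for acuF/acuG and are apart for the other 4 pairs, with acuD/acuE at 2.28 to 2.94 with tyrosol and 0.255 to 0.269 untreated.

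Ordered by level, the 10 transcripts stood differently in each condition. With tyrosol the sequence was acuD, facA, acuE, acuK, farB, farA, acuM, acuF, facB and acuG, covering a 14.7-fold range of mean RPKM. The 3 raised enzymes led it, and the neighbours acuD and facA, acuK and farB, acuF and facB, and facB and acuG overlapped in their libraries. In untreated mycelium the sequence was facA, acuK, acuF, acuM, acuG, acuE, facB, farA, farB and acuD, covering an 11.3-fold range. There acuK, acuF, acuM and acuG formed a run in which each overlapped the next, as did acuE with facB and farB with acuD. The acuD transcript was thus last in untreated libraries (7.22 ± 1.20 RPKM, SD, n = 3) and first with tyrosol. Replicates were closer with tyrosol for 9 of the genes, and acuG was the exception (coefficient of variation 20.7% with tyrosol and 16.7% untreated). The same comparison was not made over all features, so it cannot be read as a trait of these genes.

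Across these genes 9 of 10 had groups that did not overlap in RPKM, against 84.8% of all tested features. The 5 enzymes, of which 3 rose and 2 fell, had a median size of log2 change of 1.75. The 5 activators, of which 2 rose, 1 fell and 2 did not pass, had a median size of 0.33. Over all tested features that median was 0.93, with 40.6% raised and 42.9% lowered, and the difference between enzymes and activators was not tested.

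**Figure D4:**
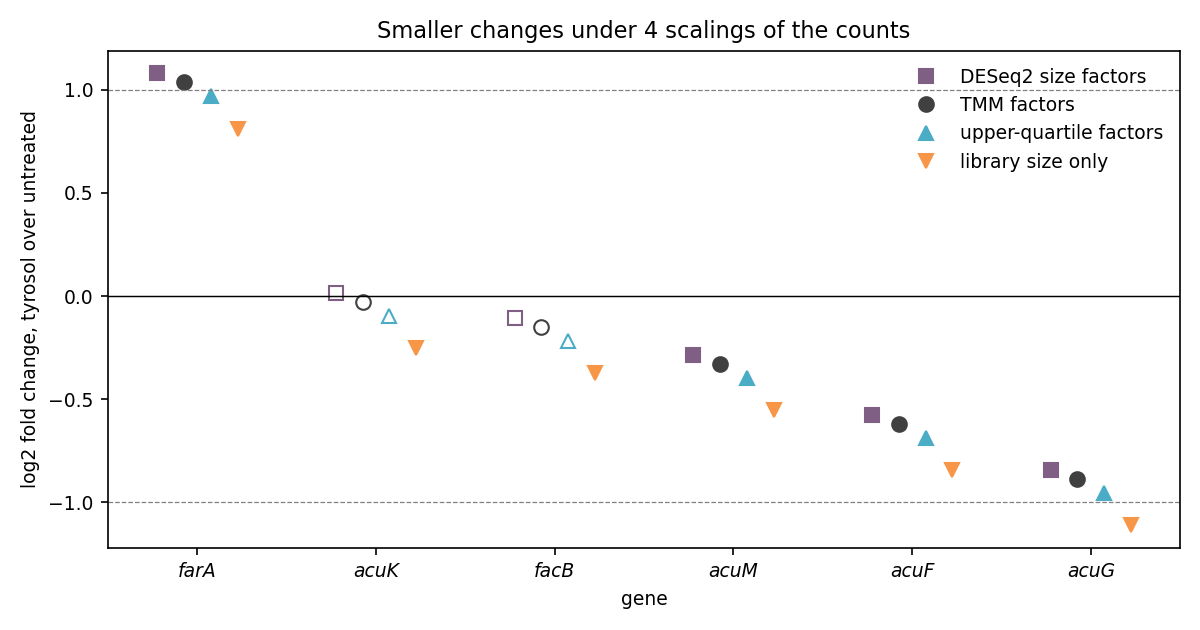
Log2 fold change, tyrosol over untreated, of the 6 genes with the smallest changes under 4 scalings of the counts; filled symbols have an adjusted p under 0.05, open ones do not, and dashed lines mark 2-fold. Library size only lowers each value, so that facB and acuK pass as lowered and acuG goes past 2-fold.

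Under scaling by library size alone the split of calls among the 10 genes was 5 raised and 5 lowered, in place of 5 and 3, since facB and acuK then passed as lowered. The rises of acuD, acuE, facA, farA and farB and the falls of acuF, acuG and acuM passed at an adjusted p under 0.05 with each scaling and filter, with DESeq2, limma-voom and limma on log2(RPKM + 1), with the replicate block and without any 1 library. In edgeR's stricter test against a 2-fold change, 4 of the 5 raised genes passed and 0 of the lowered ones.

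Other genes of these pathways were looked up by symbol, and 9 of 51 planned symbols could be matched. Of the 9, 6 rose and 3 fell, with a median log2 fold change of 0.61, and none of the acetate list could be matched. Over all tested features 40.6% rose and 42.9% fell, so calls in so few genes are no result about the pathways. For fatty acid breakdown 2 of 12 planned symbols were matched, and both genes rose. The enoyl-CoA hydratase gene echA (AN5916), which acts in beta-oxidation, was at 111, 121 and 109 RPKM with tyrosol, against 25.2, 24.5 and 26.5 RPKM untreated. Its groups were well apart, and echA rose by 2.39 ± 0.09 on the log2 scale (adjusted p = 3.5e-11). The transporter gene pxa1 (AN10078), named after a yeast peroxisomal fatty acid transporter, rose by 0.61 ± 0.10 on the log2 scale (adjusted p = 0.00011).

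The 2 matched genes of the list on oxaloacetate and the citric acid cycle (7 symbols planned) went opposite ways. The methylcitrate synthase gene mcsA (AN6650), whose enzyme joins propionyl-CoA to oxaloacetate, was at 58.4, 68.6 and 64.5 RPKM with tyrosol, against 8.22, 6.33 and 8.39 RPKM untreated. The groups did not overlap, and mcsA rose by 3.29 ± 0.12 on the log2 scale (adjusted p = 3.1e-11). Aconitase, encoded by acoA (AN5525), makes the isocitrate that isocitrate lyase cleaves. Its transcript was at 66.1, 73.2 and 77.5 RPKM with tyrosol, against 436, 374 and 387 RPKM untreated, and so moved opposite to acuD.

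The 2 matched genes of the glycolysis list (9 symbols planned) encode enzymes shared with gluconeogenesis. Both fell, as did 42.9% of all tested features. Glyceraldehyde phosphate dehydrogenase (gpdA, AN8041) averaged 1435 ± 91.7 RPKM with tyrosol and 3749 ± 474 RPKM untreated, a log2 fold change of -1.16 ± 0.10 (adjusted p = 2.2e-07). Phosphoglycerate kinase (pgkA, AN1246) averaged 493 ± 10.2 RPKM with tyrosol and 1537 ± 80.6 RPKM untreated, a log2 fold change of -1.42 ± 0.08 (adjusted p = 2.7e-09; SD, n = 3 each).

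CreA (AN6195), the repressor that holds acetate and other alternative carbon genes down in the presence of glucose, acts opposite to the activators. Its transcript was at 255, 261 and 270 RPKM with tyrosol, against 159, 116 and 120 RPKM untreated. The groups did not overlap, and the rise was 1.22 ± 0.11 on the log2 scale (adjusted p = 3.6e-07). The deubiquitinase gene creB (AN3587), the other match among 5 planned symbols of carbon repression, rose by 0.89 ± 0.11 (adjusted p = 4.2e-06). The ATP citrate lyase gene aclA (AN2435), a cytosolic source of acetyl-CoA other than FacA, averaged 643 ± 64.3 RPKM with tyrosol and 507 ± 24.9 RPKM untreated and rose by 0.57 ± 0.09 (adjusted p = 7e-05).

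Profiles were also compared over the 6 libraries by Euclidean distance in log2(RPKM + 1), among 761 named features tested. The nearest to acuF were pps1 (distance 0.372), laeA, a regulator of secondary metabolism (0.444), and agdC (0.50), with log2 fold changes of -0.63, -0.65 and -0.83. For facB they were psf2 (0.304), nte1 (0.317) and exgO (0.332), with log2 fold changes of -0.01, -0.01 and 0.05. A small distance over the 6 libraries itself entails a similar change, so these fold changes restate the selection. Named features lay further from acuD. The nearest were pex7, the receptor for a class of peroxisomal enzymes (2.30), aah1 (2.55) and mdr1 (2.60), with log2 fold changes of 3.35, 4.71 and 3.16, all less than that of acuD.

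In the gene order of the reference table, facA and acuD are separated by 7 genes. Of the 6 tested between them 2 rose, 2 fell and 2 did not pass, with log2 fold changes of -0.69 to 1.49, so the 2 raised genes did not belong to a continuous raised stretch. Between mcsA and acuE lie 2 genes, and both fell. Immediate neighbours of the 10 genes gave 18 tested features, of which 5 rose, 11 fell and 2 did not pass. Of these neighbours, 8 had the sign of the adjoining gene. Over all tested features 83.5% were called changed, 40.6% upward and 42.9% downward, so calls are common beside any gene. The largest neighbouring rise was in AN6654, beside acuE, at 2.46 ± 0.11 (185 RPKM with tyrosol and 39.1 RPKM untreated, means of 3). The strand setting of the read counting is not given in the sources used here, so reads shared between acuE and AN6654 cannot be told apart.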

How the data were processed

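Libraries were prepared with the TruSeq RNA kit from RNA of lyophilized mycelium, per the labels' protocols. HISAT2 2.1.0, FastQC, edgeR and DESeq2 1.24.0 are listed, without roles, in the submitters' processing notes. The genome build, annotation, counter and strandedness of the counting are not stated there, so values of overlapping genes or near-identical copies are uncertain. The deposited table gives, per the file headers, a whole-number read count, a feature length and an RPKM value per library. The deposited RPKM equals count over length and column total. Columns headed T were read as tyrosol and K as untreated (kontroll), with the titles' numbers. Replicates of a group differed by more than sampling noise in every pair (chi-square over its degrees of freedom 5.15 to 23.0, features with at least 20 reads).

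Counts were filtered with filterByExpr, TMM-scaled and tested with edgeR 4.0.16 (R 4.3.3, two-sided quasi-likelihood test, no covariate, Benjamini-Hochberg over 8905 features, threshold 0.05); each SE is the log2 change, unsigned, over the root of its F statistic, and intervals use the t distribution. In simulated data (8621 genes tested), recovery was 75% among 92 genes simulated at 1.5-fold, 95.8% among 48 at 2-fold and 100% among 48 at 4-fold. Of the calls, 5.78% were false. Few genes were changed in the simulation, whereas 83.5% of features were called changed in the data, so these rates need not hold there. Ratios used RPKM with an exact permutation test (scipy 1.17.1). The 2 planned ratios with glycolytic genes were left out because those genes are not named in the reference table. Symbols came from RefSeq's gene table of assembly ASM1142v1, which names 6 of the 10 genes (acuG as fbp1 and farB as farB1); the names of acuD, acuE, facA and acuK came with the choice of genes. Named genes are the 10, the matched list genes, and the 3 nearest named profiles of acuF, acuD and facB; AN6654 and the extra ratios were chosen after their values were seen. The members and lists were chosen with earlier results of these data known. Alternatives were other scalings, filters and tests (DESeq2 1.42.0, limma 3.58.1), a replicate block and leaving out each library.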

Additional observations from a re-analysis of the deposited data

How the results depend on the processing

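The count of 5 raised genes was the same under the other scalings and filters, DESeq2, limma-voom and limma on log2(RPKM + 1), with the replicate number as a block and without any 1 library. The count of 3 lowered genes was 5 with library size only and with limma on log2(RPKM + 1), both of which scale by library totals, and 3 elsewhere. The count of 0 genes lowered at least 2-fold was 1 (acuG) under the same 2 settings and lay between 0 and 1 when single libraries were dropped. The count of 5 raised at least 2-fold was 4 with upper-quartile factors, library size only, limma on log2(RPKM + 1), a test against a 2-fold change and without untreated replicate 3. The log2 fold change of acuK, -0.03, was 0.0148 with DESeq2 size factors and 0.0148 with the DESeq2 Wald test, and lay between -0.12 and 0.0489 when single libraries were dropped. The 5 ratios kept their sign under every alternative. No pairing by replicate number was seen, as deviations of same-numbered libraries correlated at -0.11, -0.01 and -0.03. With 3 libraries per group these values depend on each other and cannot show whether the libraries were paired. With the replicate block 5 genes rose and 3 fell, and the permutation within pairs gave p = 0.25 for each ratio, the smallest it can give. Depth limits the precision of the weaker transcripts, such as acuD in untreated libraries with 124 to 221 reads.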
